A study of Mus musculus with 6 samples.

Results

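MHC class I antigen presentation was examined through 9 genes, taken from the deposited gene table by their symbols: the heavy chains HLA-B, HLA-C and HLA-E, the light chain B2M, the peptide transporter subunits TAP1 and TAP2, the loading factor TAPBP, the trimming peptidase ERAP1 and the transactivator NLRC5. They are 9 of the 39234 genes in the table, and all 9 passed the filter on low counts. The samples were 6 cultures of HK-2, a line of immortalized epithelial cells from the proximal tubule of a human kidney. Of these, 3 were controls and 3 were made to overexpress USAG-1, a secreted antagonist of BMP and Wnt signalling. All 6 carry the same wild-type label, no treatment or time point is given, and the study's methods describe overexpression in cells as transient plasmid transfection and state that the line was not authenticated by STR profiling. Whether the control cultures received an empty plasmid is not given in the sources used here. Mouse is given as the organism in the labels, but the line and the gene identifiers are human.

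Class I molecules show short peptides from inside the cell to CD8+ T cells. A polymorphic heavy chain pairs with beta-2-microglobulin in the endoplasmic reticulum, the TAP1/TAP2 transporter pumps in peptides made by the proteasome, tapasin bridges the empty heavy chain to the transporter, and ERAP1 trims peptides to their final length. NLRC5 is the transactivator of these genes in the nucleus, and interferons and NF-kB also raise their transcription. In the kidney, class I on tubular epithelium is a target of T cells in graft rejection.

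The 6 libraries held 41236194 to 48699471 counted reads. SOSTDC1, which encodes USAG-1, had 60 to 80 counts in control libraries and 3907 to 5072 counts in USAG-1-overexpressing libraries. Control replicate 3 stood apart from the other controls: a chi-square of its counts against theirs, divided by the degrees of freedom, was 47.2 and 47.7, and that of control replicates 1 and 2 was 6.87. Mitochondrially encoded genes took 4.80% to 5.59% of the counts in control libraries and 1.504% to 1.55% in USAG-1-overexpressing libraries. Of the markers of proximal tubule, GGT1 (85.1 to 164 CPM over the 6 libraries) was clearly expressed, LRP2 had no count in any library, and CUBN and AQP1 did not pass the filter. PAX8, a transcription factor of kidney epithelium, lay between 365 and 455 CPM. A count of 0 allows up to 0.0608 to 0.0719 CPM (3 counts per library), a limit that covers counting error only.

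The comparison asked whether USAG-1 overexpression changed the transcripts of class I presentation. TAP1 fell by 0.32 on the log2 scale, which was the 1 call among the 9 genes at an adjusted p under 0.05. HLA-B, HLA-C, HLA-E, B2M and NLRC5 had lower means in USAG-1-overexpressing cells, and TAPBP, TAP2 and ERAP1 had higher ones, without passing the test. Over all 18188 genes tested, 15.9% were called, 8.95% as higher and 6.91% as lower, so 1 call in 9 genes is near the background. The median log2 fold change of the 9 genes was -0.11, against -0.02 over all genes tested. Levels are given as CPM, read counts relative to the TMM-scaled library size, and they are compared between libraries only, since no transcript lengths were used.

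**Figure D1:**
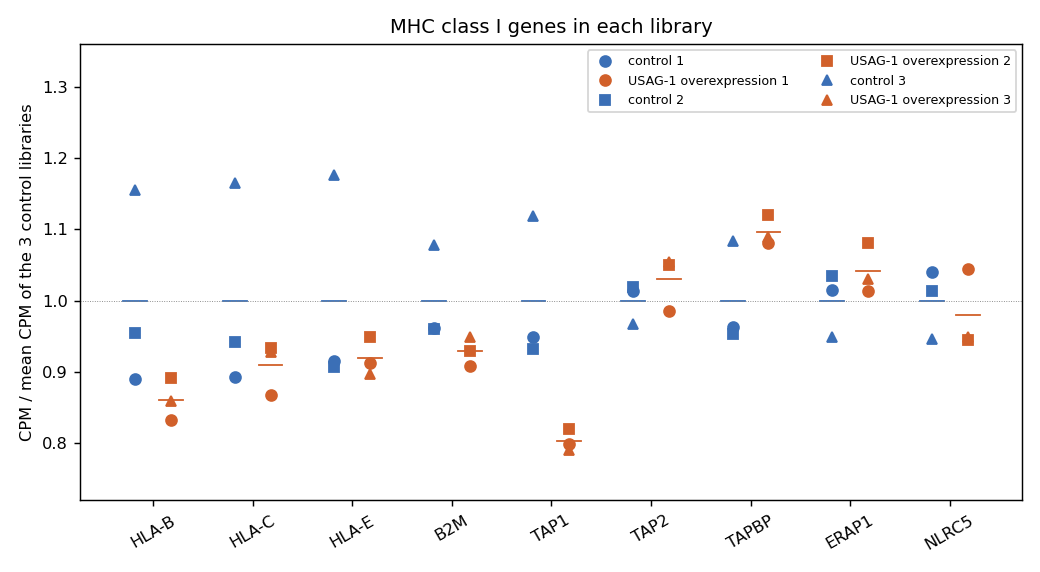
Level of each of the 9 genes in each library, as its CPM divided by the mean CPM of the 3 control libraries. Points are libraries (circle, square and triangle for replicates 1, 2 and 3), and short lines are group means. Control replicate 3 (blue triangles) lies highest among the controls for HLA-B, HLA-C, HLA-E, B2M, TAP1 and TAPBP, and for TAP1 and B2M all 3 USAG-1-overexpressing libraries lie below all controls.

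The heavy chains did not differ between the groups beyond the spread of their replicates. HLA-B (ENSG00000234745; chromosome 6, 31353872 to 31367067, minus strand, hg38) encodes a classical heavy chain that presents peptides and binds killer cell receptors. Its level was 166, 178 and 216 CPM in the control libraries and 156, 166 and 160 CPM in the USAG-1-overexpressing libraries. The groups overlapped, and control replicate 3 was the highest library. The fold was 0.861 (95% interval 0.740 to 1.002), or -0.22 on the log2 scale with a standard error of 0.095, and edgeR gave an adjusted p of 0.169.

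HLA-C (ENSG00000204525; chromosome 6, 31268749 to 31272130, minus strand), the classical heavy chain best known as a ligand of killer cell receptors, had 103, 108 and 134 CPM in control cells. With USAG-1 overexpression it had 99.9, 107 and 107 CPM. Control replicate 3 was again the highest library, and the other 5 lay between 99.9 and 108 CPM. The fold was 0.910 (95% interval 0.776 to 1.07, log2 fold change -0.14, adjusted p = 0.406).

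HLA-E (ENSG00000204592; chromosome 6, 30489509 to 30494194, plus strand) encodes the nonclassical heavy chain that presents leader peptides of other class I chains to NKG2A and NKG2C receptors. It had 299, 296 and 384 CPM in control cells and 298, 310 and 293 CPM with USAG-1 overexpression. Control replicate 3 alone was high, and the other 5 libraries could not be separated by group. The fold was 0.920 (95% interval 0.784 to 1.08, log2 fold change -0.12, adjusted p = 0.469), and without control replicate 3 the log2 fold change turned to 0.02. HLA genes are near-identical to each other in parts of their sequence, and how the authors assigned shared reads is not given in the sources used here, so the split between them is uncertain.

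B2M (ENSG00000166710; chromosome 15, 44711358 to 44718145, plus strand) encodes beta-2-microglobulin, the light chain shared by all class I molecules and needed for their surface expression. It had 603, 601 and 676 CPM in control cells and 569, 583 and 595 CPM with USAG-1 overexpression. Every USAG-1-overexpressing library was below every control library, but the gap to the lowest control was small. The fold was 0.929 (95% interval 0.843 to 1.03, log2 fold change -0.11, standard error 0.062, adjusted p = 0.293), which did not pass the test.

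Of the transporter subunits, TAP1 was called and TAP2 was not. TAP1 (ENSG00000168394; chromosome 6, 32845209 to 32853717, minus strand) had 2795, 3247 and 3366 counts in the control libraries, or 67.0, 65.8 and 78.9 CPM. In USAG-1-overexpressing libraries it had 2589, 2525 and 2408 counts, or 56.4, 57.8 and 55.8 CPM. The groups did not overlap, and the USAG-1-overexpressing libraries lay close together. The mean fell from 70.6 ± 7.27 to 56.7 ± 1.04 CPM (SD, n = 3 each), a fold of 0.803 (95% interval 0.707 to 0.912). On the log2 scale this was -0.32 with a standard error of 0.080, at an adjusted p of 0.0326 by edgeR. The log2 fold change stayed between -0.37 and -0.22 over the 15 refits, and the call was kept in 9 of them. It was lost without a filter on low counts (-0.32, adjusted p = 0.057), without control replicate 1 (-0.35, adjusted p = 0.0525) and without USAG-1 overexpression replicate 1 (-0.31, adjusted p = 0.121), replicate 2 (-0.33, adjusted p = 0.11) or replicate 3 (-0.30, adjusted p = 0.123). It was kept without control replicate 2 (-0.37, adjusted p = 0.0466) and without control replicate 3 (-0.22, adjusted p = 0.00591). Over all 15 refits the adjusted p ranged from 0.00557 to 0.123, and the direction was the same in each. The number of calls over all genes also moved with the libraries used. It was 2884 with all 6 libraries and 5091 when control replicate 3 was dropped. Dropping any other single library gave 1137 to 1917 calls. TAP1 overlaps PSMB9 on the opposite strand, which had 813 to 1286 counts. The library protocol marks strand, but whether the counting used it is not given in the sources used here.

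TAP2 (ENSG00000204267; chromosome 6, 32821833 to 32838739, minus strand), the other subunit of the transporter, had 212, 213 and 202 CPM in control cells and 206, 220 and 221 CPM with USAG-1 overexpression. The groups overlapped, and control replicate 3 was the lowest library here, not the highest. The fold was 1.03 (95% interval 0.943 to 1.12, log2 fold change 0.04, standard error 0.055, adjusted p = 0.66). A fall of the size seen for TAP1 (0.803) lies outside this interval.

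TAPBP (ENSG00000231925; chromosome 6, 33299694 to 33314267, minus strand) encodes tapasin, which holds empty heavy chains at the transporter and edits the peptides they bind. Its level was 358, 354 and 403 CPM in control cells and 402, 416 and 405 CPM with USAG-1 overexpression. Control replicate 3 overlapped the USAG-1-overexpressing libraries, whereas control replicates 1 and 2 lay below them. The fold was 1.10 (95% interval 0.991 to 1.21, log2 fold change 0.13, standard error 0.064, adjusted p = 0.201). Without control replicate 3 the log2 fold change was 0.20 and passed the threshold (adjusted p = 0.0016). In the other 14 refits TAPBP was not called, with adjusted p up to 0.453.

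ERAP1 (ENSG00000164307; chromosome 5, 96760810 to 96808100, minus strand), the aminopeptidase that trims peptides in the endoplasmic reticulum, had 151, 154 and 141 CPM in control cells and 151, 161 and 153 CPM with USAG-1 overexpression. The groups overlapped, and the fold was 1.04 (95% interval 0.948 to 1.14, log2 fold change 0.06, adjusted p = 0.555). ERAP1 overlaps CAST on the opposite strand, a gene with 6418 to 9350 counts.

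NLRC5 (ENSG00000140853; chromosome 16, 56989485 to 57083524, plus strand), the class I transactivator, had 1213 to 1505 counts per library and was the least deeply counted of the 9 genes. Its level was 31.3, 30.5 and 28.5 CPM in control cells and 31.4, 28.4 and 28.6 CPM with USAG-1 overexpression. The groups overlapped fully. The fold was 0.980 (95% interval 0.869 to 1.10, log2 fold change -0.03, standard error 0.075, adjusted p = 0.832).

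**Figure D2:**
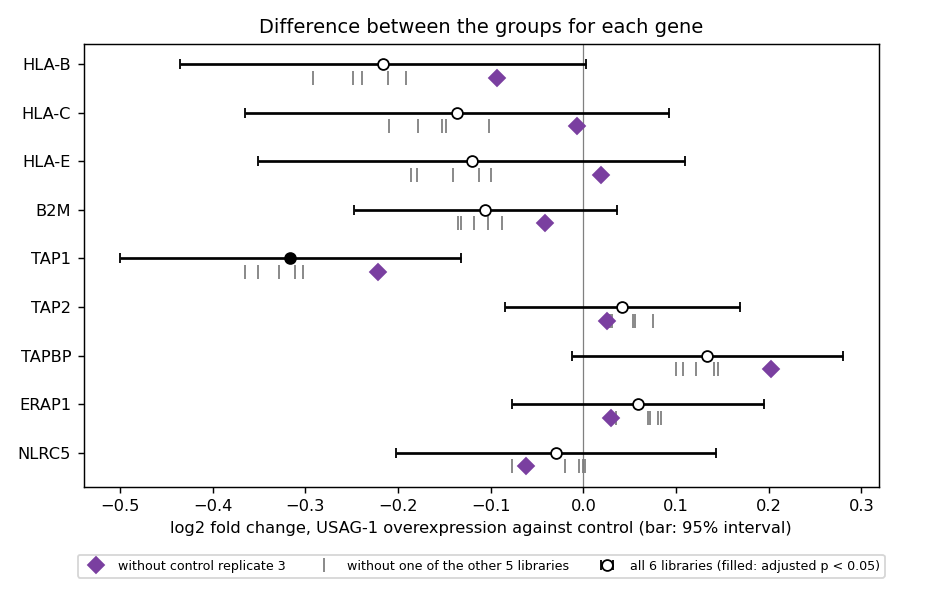
Log2 fold change of each gene, USAG-1 overexpression against control, with its 95% interval over all 6 libraries (circles, filled for TAP1, the gene with an adjusted p under 0.05). Marks under each circle are the values with 1 library left out. Leaving out control replicate 3 (diamonds) moves HLA-B from -0.22 to -0.09, HLA-C from -0.14 to -0.01 and TAPBP from 0.13 to 0.20.

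TAP1 and B2M, 2 of the 9 genes, had groups without overlap, as did 37.6% of all genes tested. Of the 9 genes, 7 varied more among control libraries than among USAG-1-overexpressing ones, and TAP2 (2.82% against 3.76%) and NLRC5 (4.90% against 5.75%) varied less. The coefficient of variation of the 9 genes was 2.82% to 15.3% in control cells, with the heavy chains at 13.9% to 15.3%, and 1.84% to 5.75% with USAG-1 overexpression. Counting error alone gave at most 2.87%. The spread among controls came mainly from control replicate 3. Its level over the mean of the other 2 controls was 1.25 for HLA-B, 1.27 for HLA-C, 1.29 for HLA-E, 1.12 for B2M, 1.19 for TAP1 and 1.13 for TAPBP. For TAP2, ERAP1 and NLRC5 the same quotient was 0.952, 0.926 and 0.921. The median log2 difference between control replicate 3 and the other controls was 0.18 over the 9 genes and -0.01 over all genes tested. Without control replicate 3, TAP1 and TAPBP were called, 2 of 9 genes, where 27% of all genes tested were called in that fit.

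The first 6 of these genes moved together from library to library. Their deviations from the group means had Pearson correlations of 0.917 to 0.999 in all 15 pairs, over 6 libraries. Against TAP2, ERAP1 and NLRC5 the correlations were negative in all 18 pairs, from -0.838 to -0.332. The sets were formed after the values were seen, all points share library depth and scaling, and control replicate 3 decides the correlations: without it, those among the 6 genes ranged from -0.237 to 0.962 over 5 libraries.

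Ratios of the counts of 2 genes within a library do not depend on how libraries are scaled, and they are given as a description for pairs chosen after the values were seen. TAP1 over TAP2 was 0.316, 0.309 and 0.390 in control libraries and 0.274, 0.263 and 0.253 in USAG-1-overexpressing libraries, and the groups did not overlap. TAPBP over B2M was 0.594, 0.589 and 0.596 in control libraries and 0.706, 0.714 and 0.681 with USAG-1 overexpression. Here control replicate 3 was level with the other controls, unlike in the scaled levels of either gene. HLA-B over HLA-C was 1.61 to 1.64 in control libraries and 1.5 to 1.56 with USAG-1 overexpression, a small gap without overlap. HLA-E over B2M overlapped, with 0.493 to 0.568 in control libraries and 0.493 to 0.532 with USAG-1 overexpression.

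**Figure D3:**
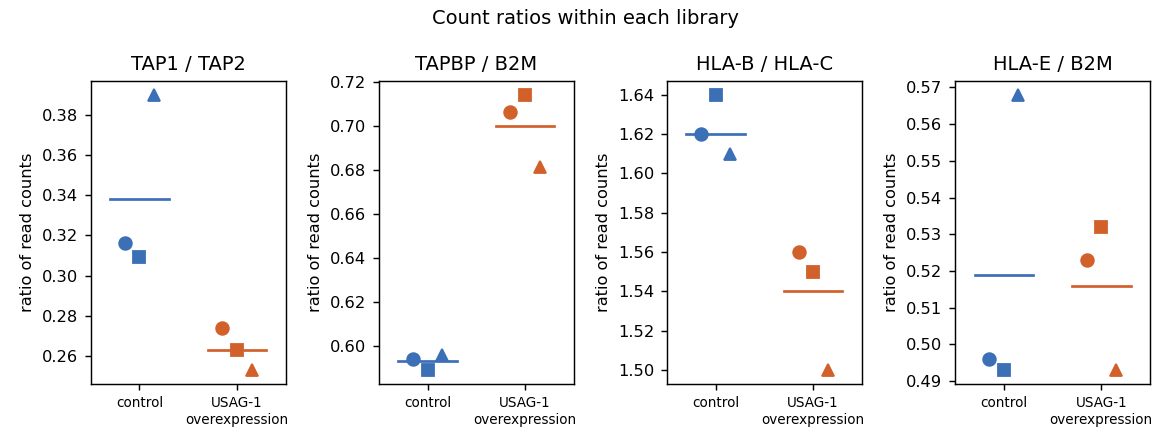
Ratio of the read counts of 2 genes within each library, for 4 pairs, with control libraries in blue and USAG-1-overexpressing libraries in orange (circle, square and triangle for replicates 1, 2 and 3, lines for group means). The vertical axes do not start at 0. TAP1 over TAP2 and HLA-B over HLA-C are lower in all 3 USAG-1-overexpressing libraries, TAPBP over B2M is higher in all 3, and HLA-E over B2M overlaps.

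Other genes of the pathway were described from lists typed by hand, without a test of any list. Over all genes tested, 15.9% were called and 37.6% had groups without overlap. Among the other class I and class I-like chains, 8 of 9 genes were tested and 0 were called by edgeR or limma-voom and 1 by DESeq2, whereas 2 had an unadjusted p under 0.05 with groups that did not overlap. These were MICA and MICB, stress-induced ligands of the NKG2D receptor. MICA had 54.3, 53.2 and 63.1 CPM in control cells and 66.3, 70.5 and 68.2 CPM with USAG-1 overexpression (log2 fold change 0.27, adjusted p = 0.0544). It was called in 4 of 15 refits, DESeq2's Wald test among them, with adjusted p from 0.000817 to 0.189. MICB had 91.2, 89.9 and 103 CPM against 109, 110 and 107 CPM (log2 fold change 0.19, adjusted p = 0.0932) and was called in 2 of 15 refits, with adjusted p from 0.0012 to 0.251. Without control replicate 3, 5 of the 8 chains tested were called as higher (median log2 fold change 0.18), where 27% of all genes tested were called. With library sizes alone 2 were called, and with any other single library left out 0 were. HLA-G did not pass the filter, with 0 to 7 counts per library.

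Of 8 other loading and trimming factors, 1 was called, where 15.9% of all genes tested were called. Groups did not overlap for 3 of the 8, as for 37.6% of all genes tested. Without control replicate 3, 3 of the 8 were called as higher, where 27% of all genes tested were called. With a replicate block or with any other single library left out, 0 were called. CANX, the chaperone calnexin that binds newly made heavy chains, had 802, 762 and 832 CPM in control cells and 978, 945 and 923 CPM with USAG-1 overexpression. All 3 USAG-1-overexpressing libraries were higher than all controls, with a log2 difference of 0.25 ± 0.055 (standard error) and an adjusted p of 0.0192. The call was lost when control replicate 1 (0.25, adjusted p = 0.0586) or 2 (0.22, adjusted p = 0.0829) was left out, and equally for USAG-1 overexpression replicate 1 (0.23, adjusted p = 0.0988), 2 (0.25, adjusted p = 0.0813) or 3 (0.27, adjusted p = 0.0626), and the lowest adjusted p over the 15 refits was 0.000415.

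The immunoproteasome, the interferon-inducible form of the proteasome that feeds the transporter, had 0 calls among 5 genes by edgeR or limma-voom and 2 by DESeq2. All 5 log2 fold changes were below 0 (median -0.27), and 3 of the 5 had groups that did not overlap and an unadjusted p under 0.05. Over all genes tested, 37.6% had groups without overlap. PSMB9, the neighbour of TAP1, had 21.5, 23.2 and 30.2 CPM in control cells and 18.1, 18.6 and 19.1 CPM with USAG-1 overexpression (log2 fold change -0.42, adjusted p = 0.0583). PSMB10 had 48.7, 51.8 and 73.7 CPM against 43.5, 44.0 and 45.3 CPM (log2 fold change -0.39, adjusted p = 0.107). As for the heavy chains, control replicate 3 was the highest library for both. Without it the log2 fold change was -0.26 for PSMB9, -0.18 for PSMB10 and -0.14 as the median of the 5 genes. PSMB9 was called in 5 of 15 refits (adjusted p 0.0177 to 0.177) and PSMB10 in 2 (adjusted p 0.0356 to 0.262), DESeq2's Wald test being among them for both. The 3 constitutive catalytic subunits of the proteasome had a median log2 fold change of 0.01. They had 0 calls by edgeR, limma-voom or DESeq2 and 0 with an unadjusted p under 0.05. Of the 3, 2 were at positive values, PSMB5 (0.02, adjusted p = 0.932) and PSMB6. PSMB7 stood at -0.03 (adjusted p = 0.915). Without control replicate 3 all 3 constitutive subunits were called as higher, with a median of 0.19, PSMB5 at 0.20 (adjusted p = 0.0111) and PSMB7 at 0.18 (adjusted p = 0.00477). Their median was below 0, without a call, when control replicate 1 (-0.075) or 2 (-0.069) or USAG-1 overexpression replicate 3 (-0.020) was left out.

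The factors upstream of class I genes moved in both directions. In the enhanceosome that NLRC5 joins on class I promoters, 2 of 8 genes were called, where 15.9% of all genes tested were called. RFX5, a DNA-binding subunit of the RFX complex, rose from 90.4 to 92.2 CPM over the control libraries to 103 to 107 CPM (log2 fold change 0.20, adjusted p = 0.0362). NFYB, a subunit of the CCAAT-binding factor NF-Y, fell from 35.1, 36.3 and 29.0 CPM to 25.3, 23.0 and 23.8 CPM (log2 fold change -0.48, adjusted p = 0.0148). RFX5 lost its call without a filter on low counts (adjusted p = 0.0547) and with any library but control replicate 3 left out (0.19 to 0.22, adjusted p 0.0947 to 0.138). For NFYB the call was lost when control replicate 1 (-0.44) or 2 (-0.42) or USAG-1 overexpression replicate 2 (-0.44) or 3 (-0.47) was left out, with adjusted p from 0.0519 to 0.0815.

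Of 14 genes of the interferon and NF-kB route, 3 fell, where 6.91% of all genes tested were called as lower. The receptor subunits IFNAR2, for type I interferons, and IFNGR2, for interferon gamma, fell. IFNAR2 changed from 56.3, 57.1 and 61.5 CPM to 43.5, 37.6 and 44.3 CPM (log2 fold change -0.48, adjusted p = 0.00633), and IFNGR2 from 24.5, 24.1 and 28.0 CPM to 16.8, 19.4 and 15.9 CPM (log2 fold change -0.56, adjusted p = 0.0106). NFKB1, which encodes the p105/p50 subunit of NF-kB, fell from 105, 112 and 115 CPM to 87.3, 84.9 and 81.6 CPM (log2 fold change -0.39, adjusted p = 0.00526). IFNAR2 and NFKB1 were called in all 15 refits, with the highest adjusted p at 0.0334 and 0.0383. IFNGR2 was called in 13 of them and lost its call without USAG-1 overexpression replicate 1 (-0.53, adjusted p = 0.0567) or 3 (-0.49, adjusted p = 0.056). The median log2 fold change of the 14 genes was 0.05, and 7 of them had groups without overlap, as did 37.6% of all genes tested.

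**Figure D4:**
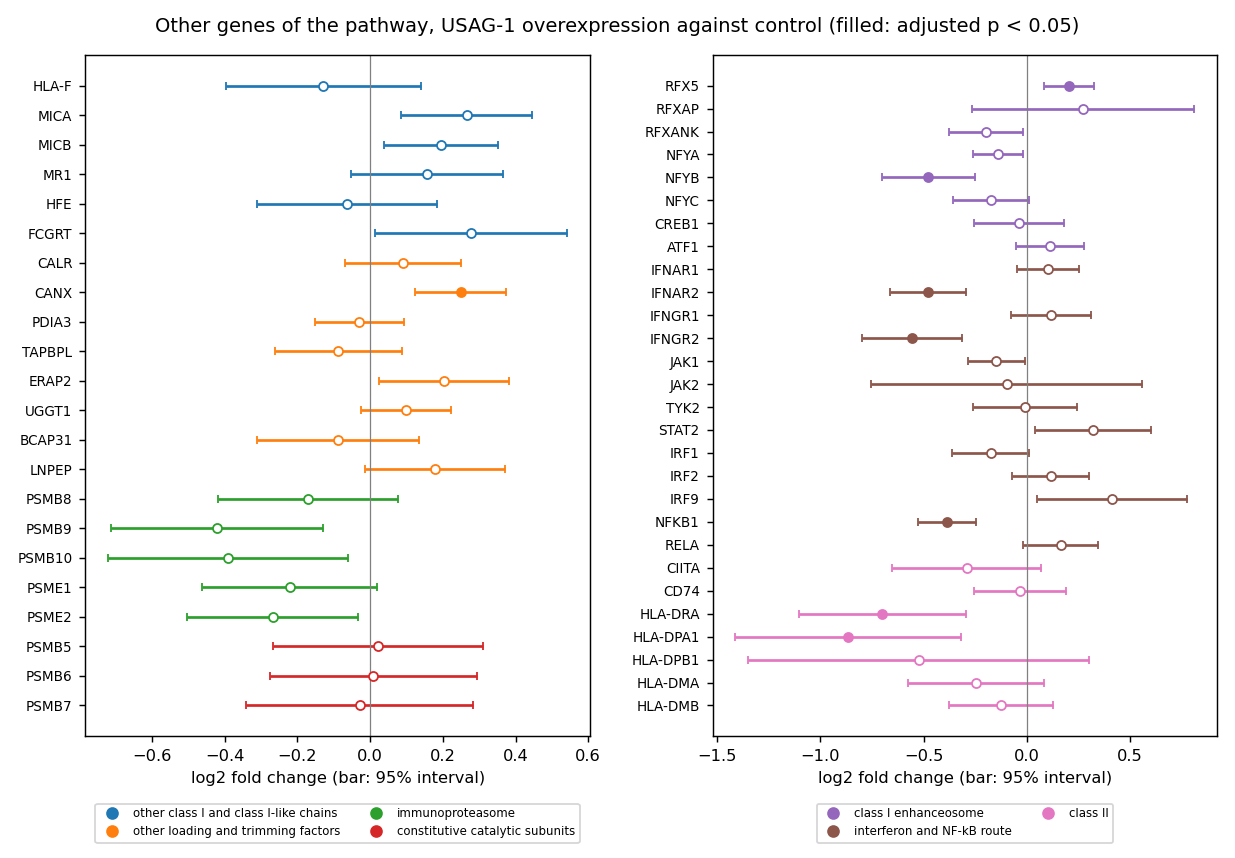
Log2 fold change with its 95% interval for the other genes of the pathway, coloured by list, with filled circles for an adjusted p under 0.05. CD1D, HLA-DRB1, HLA-DQA1 and HLA-DQB1, which have few counts and wide intervals, are not drawn, and not every gene of the lists is shown. CANX (0.25) and RFX5 (0.20) lie right of 0, and IFNAR2, IFNGR2, NFKB1, NFYB, HLA-DRA and HLA-DPA1 lie left of it.

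Leukocytes carry much class I and B2M, and their markers differed between the groups. Over all genes tested, 6.91% were called as lower. Of the 10 T cell markers 9 fell, with a summed level of 65.3 to 72.0 CPM in control libraries and 26.5 to 33.4 CPM in USAG-1-overexpressing ones. IL7R was the exception (17.9 to 21.9 against 21.9 to 27.6 CPM, log2 fold change 0.27, adjusted p = 0.161). The 8 markers of cytotoxic and NK cells summed to 49.1 to 67.5 CPM in control libraries and 4.603 to 5.92 CPM with USAG-1 overexpression, and 6 of them fell. Of 5 markers of all leukocytes, 4 fell (65.6 to 77.0 against 21.7 to 28.1 CPM in sum). Among defining markers, CD3D was at 0 in USAG-1 overexpression replicate 1, and CD2 and GZMA were at 0 in USAG-1 overexpression replicate 2. The cytotoxic marker GZMH went the other way, at 0 in control replicate 1 and at 0.41 to 0.74 CPM with USAG-1 overexpression. Whether leukocytes were present in these cultures of an epithelial line, or where else the transcripts came from, was not tested. In bulk RNA, a change in the number of cells and one in RNA per cell also cannot be told apart. The summed level of all 35 leukocyte markers was 234 to 329.6 CPM in control libraries, highest in control replicate 3, and 101 to 136 CPM with USAG-1 overexpression. Among the controls, the myeloid markers S100A8 (2.87, 1.93 and 22.98 CPM) and S100A9 (13.75, 9.73 and 47.89 CPM) stood out in control replicate 3. With USAG-1 overexpression they were uneven too, at 2.22, 16.2 and 9.96 CPM for S100A8 and 8.08, 28.5 and 33.2 CPM for S100A9. Both genes are part of the sum over all 35 markers. The sums of T cell, cytotoxic and all-leukocyte markers were also highest in control replicate 3 among the controls. PTPRC (18.95, 10.88 and 10.86 CPM) and CD8A (6.97, 6.42 and 6.66 CPM) were not. For control replicate 3, HLA-B, HLA-C, HLA-E, B2M and TAP1 were also highest. The part of these transcripts in the levels of the 9 class I genes was not tested.

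**Figure D5:**
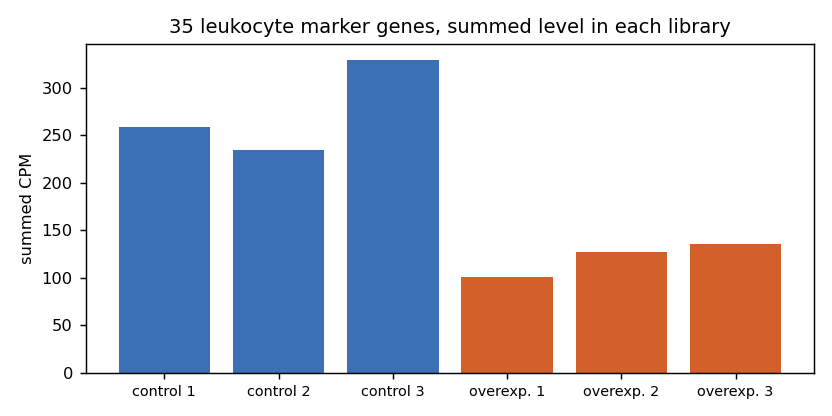
Summed CPM of 35 leukocyte marker genes (T cells, cytotoxic and NK cells, B cells, myeloid cells and all leukocytes) in each library, with bars from 0. The 3 control libraries (blue) lie at 234 to 329.6 CPM and the 3 USAG-1-overexpressing libraries (orange) at 101 to 136 CPM.

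The class II genes, which professional antigen-presenting cells express, had 2 calls among 10 genes, both lower, where 6.91% of all genes tested were called as lower. All 10 log2 fold changes were below 0 (median -0.61). With control replicate 3 left out the median was -0.32, and with USAG-1 overexpression replicate 1 left out it was -0.31. HLA-DRA had 11.4, 10.9 and 9.15 CPM in control cells and 7.88, 5.18 and 6.26 CPM with USAG-1 overexpression (log2 fold change -0.70, adjusted p = 0.0315). HLA-DPA1 had 4.17, 5.63 and 3.49 CPM against 2.57, 1.901 and 2.83 CPM (log2 fold change -0.87, adjusted p = 0.0428). For both, all USAG-1-overexpressing libraries were below all controls. HLA-DRA lost its call when control replicate 1 (-0.63) or 2 (-0.67) or USAG-1 overexpression replicate 2 (-0.56) or 3 (-0.68) was left out, with adjusted p from 0.0905 to 0.111, and without a filter on low counts (adjusted p = 0.0608). HLA-DPA1 lost it with any library but control replicate 3 left out (-0.98 to -0.65, adjusted p 0.0841 to 0.15), without a filter (adjusted p = 0.0903) and with library sizes alone (adjusted p = 0.0555). CD74, the invariant chain, did not differ beyond its spread (149 to 186 against 146 to 171 CPM, log2 fold change -0.03, adjusted p = 0.853).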

How the data were processed

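Poly(A)-selected RNA was sequenced in strand-specific paired libraries, per the labels, which elsewhere name ribosomal RNA removal and another sequencer. The submitters' processing notes name hg38, cutadapt (1.9) and FastQC. The aligner, the counting and the annotation are not given in the sources used here. The authors deposited 1 table of raw counts per gene for the 6 libraries, under a name that speaks of FPKM although its values are whole numbers. From these counts, genes were filtered with filterByExpr, scaled by TMM and compared with the quasi-likelihood test of edgeR (4.0.16, R 4.3.3), Benjamini-Hochberg adjusted over 18188 genes, without a block. The study's methods name DESeq2, run here (1.42.0) as an alternative beside limma-voom (limma 3.58.1). Standard errors are the log2 fold change over the root of F, and 95% intervals use the fit's degrees of freedom. Correlations used log2 CPM with a prior count of 2, and the comparison of control replicate 3 with the other controls added 0.1 CPM before the logarithm. Nothing says that replicates came from separate experiments, so p-values measure the spread between these libraries.

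Members, lists and alternatives were chosen with earlier results of these data known. Named were all 9 members, SOSTDC1 and, from each pathway list, up to 4 called genes with the smallest p or, with none called, the 2 with the smallest p. HLA-G, PSMB6, CD74 and the markers were named after their values were seen, apart from LRP2, CUBN, AQP1, GGT1 and PAX8 as the check of the cell type. On simulated counts for 17726 genes, 86.0% of 200 changed genes were recovered and 1.71% of calls were false. No simulated library was set apart from its group as control replicate 3 was, so these rates may not hold for the data. Recovery was not split by size of change, and for differences as small as those of the 9 genes it was not tested. Some genes of the pathway lists enter the counts but are not reported here by name. No sequence is printed, since no human sequence was used here.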

Additional observations from a re-analysis of the deposited data

How the results depend on the processing

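TAP1 was the call among the 9 class I genes, and the number of calls was 0 without a filter on low counts, 0 at an adjusted p under 0.01 and 0 with a replicate block (TAP1 at -0.31, adjusted p = 0.0505). It ranged from 0 to 2 with 1 library left out. The other settings kept 1 call: limma-voom, the Wald test of DESeq2, its size factors within edgeR, library sizes alone, at least 10 counts in every library, and library sizes without mitochondrially encoded or leukocyte marker genes. The median log2 fold change of the 9 genes ranged from -0.14 to -0.0066 with 1 library left out, the latter without control replicate 3. Over all genes, 1104 were called at an adjusted p under 0.01, and 1137 (without USAG-1 overexpression replicate 2) to 5091 (without control replicate 3) with 1 library left out. Direction turned when single libraries were left out for HLA-E (-0.19 to 0.019), NLRC5 (-0.077 to 0.0012), PSMB5 (-0.069 to 0.20) and PSMB7 (-0.13 to 0.18). The cause was not tested. Over 25 genes, 317 of the refitted values kept direction and side of the threshold, 38 lost and 15 gained the call, and 5 turned. Whether replicate numbers pair the cultures is not given in the sources used here. Deviations of same-numbered libraries from their group means correlated at 0.070, -0.054 and 0.037. These values cannot decide it, since control replicate 3 shapes the deviations of all 3 controls. With the replicate block, which also ended the calls of CANX (adjusted p = 0.0504), RFX5 (0.0733) and HLA-DPA1 (0.0902), 2381 genes were called, against 2884. The 9 genes had at least 1213 counts in every library, and for TAP1 the coefficient of variation with USAG-1 overexpression (1.84%) was no larger than that of counting alone (up to 2.04%).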

Other observations

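Markers of other cell types had fewer differences between the groups, and 15.9% of all genes tested were called. Of 8 myeloid markers 1 was called, LYZ, which fell from 37.7, 21.8 and 23.3 to 17.6, 14.5 and 17.6 CPM (log2 fold change -0.73, adjusted p = 0.0439, edgeR's quasi-likelihood test). The list had 2 calls by DESeq2 and without control replicate 3, and 0 by limma-voom, with library sizes alone, with no filter, and when control replicate 1 or any 1 USAG-1-overexpressing library was left out. In sum the myeloid markers lay at 47.6 to 109.9 CPM in control libraries and 39.0 to 72.6 CPM with USAG-1 overexpression. None of 4 B cell markers (2.01 to 3.67 against 1.22 to 3.22 CPM in sum) and none of 5 platelet and erythroid markers (8.19 to 108.8 against 8.43 to 76.8 CPM) was called by edgeR, limma-voom or DESeq2, and none of these 9 genes had an unadjusted p under 0.05. The globin gene HBB was uneven, with 70.4 CPM in control replicate 2 and 51.6 CPM in USAG-1 overexpression replicate 1 against 2.06 to 7.97 CPM in the other libraries. Of 3 endothelial markers 1 passed the filter, PECAM1, and it was not called (log2 fold change -0.61, adjusted p = 0.354). Among the kidney lists, GGT1 (log2 fold change 0.55, adjusted p = 0.0208) and PAX8 (log2 fold change 0.26, adjusted p = 0.0114) rose. No proximal tubule marker was called by edgeR without USAG-1 overexpression replicate 1 or 3, and no kidney epithelium marker without control replicate 2 or any 1 USAG-1-overexpressing library.

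The genes whose log2 CPM followed the class I genes most closely over the 6 libraries were ARPC4, PNP and IL32 for HLA-B (Pearson r = 0.999, 0.998 and 0.998). For B2M they were ATP5MC3, MDH1 and NOP16 (0.997, 0.995 and 0.994), for TAP1 TNFRSF19, ACTR1B and MLEC (0.997 for each) and for NLRC5 RAB22A, CDKN3 and NFATC2IP (0.982, 0.9748 and 0.9746). With 11100 genes compared over 6 libraries that share depth and scaling, such values are common: 674 genes had an r over 0.9 with HLA-B, 724 with B2M, 838 with TAP1 and 54 with NLRC5.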
